A study of Homo sapiens with 6 samples.

Results

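Gluconeogenesis is the pathway by which liver makes glucose from lactate, amino acids and glycerol. A set of 10 genes, chosen by symbol for their known role in this pathway, was followed here, out of 59608 genes in the count table. The set was chosen with earlier results of these data known. It held the phosphoenolpyruvate carboxykinases PCK1 and PCK2, pyruvate carboxylase (PC), fructose-1,6-bisphosphatase (FBP1) and the glucose-6-phosphatases G6PC and G6PC3. The others were the glucose-6-phosphate carrier SLC37A4, tyrosine aminotransferase (TAT), and the regulators PPARGC1A and FOXO1. RNA came from HepG2, a long-established line of human liver tumour cells, in which endogenous VEZF1 had been removed with a lentivirus-encoded sgRNA. VEZF1 is a zinc finger transcription factor that can carry O-GlcNAc, a sugar attached to serine or threonine. The cells were then given back wild-type VEZF1 (VEZF1-WT) or a form with alanine in place of the serines that bear this sugar (VEZF1-2A), with 3 libraries of each, so both groups share the sgRNA background and differ in the VEZF1 form. No library of unmodified HepG2 or of cells without re-expressed VEZF1 was analysed here. The labels do not say whether the 3 libraries of a group came from separate cultures. The p-values of the main fit below thus measure the spread between these libraries, which may be technical.

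As background, glucose production runs glycolysis backwards around its irreversible steps. PC makes oxaloacetate in mitochondria, and the carboxykinases turn oxaloacetate into phosphoenolpyruvate, PCK1 in the cytosol and PCK2 in mitochondria. FBP1 then removes a phosphate from fructose-1,6-bisphosphate, and at the last step SLC37A4 carries glucose-6-phosphate into the endoplasmic reticulum, where G6PC releases free glucose. In liver, glucagon through cAMP and glucocorticoids raise PCK1, G6PC and TAT transcription, and insulin lowers it, with FOXO1 and its coactivator PGC-1alpha (encoded by PPARGC1A) as known intermediates. G6PC3 is the widely expressed relative of G6PC.

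Positions are on GRCh38, as given in the count table. PCK1 spans chr20:57561080-57568121 and PCK2 chr14:24094053-24110598, both on the plus strand. PC is at chr11:66848417-66958386 and FBP1 at chr9:94603133-94640249, both on the minus strand. G6PC (chr17:42900797-42914438) and G6PC3 (chr17:44070735-44076344) are on the plus strand of the same chromosome, and SLC37A4 is at chr11:119024114-119030906 on the minus strand. TAT (chr16:71565660-71577092), PPARGC1A (chr4:23755041-23904089) and FOXO1 (chr13:40555667-40666641) are on the minus strand.

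Sequences before the start sites were read from RefSeq promoters on GRCh38.p14, in which 8 of the 10 genes, all but PCK1 and TAT, had an entry, with 14 start sites in all. The windows of G6PC and FBP1 are shown because these genes gave next to no reads, and that of FOXO1 because it was transcribed in every library. Each runs 5′ to 3′ on the gene's own strand and ends at the RefSeq start site. G6PC (G6PC1 in RefSeq) is at chr17:42900549-42900796 (plus strand, without the last 2 bases, which lie in an annotated exon). FBP1 is at chr9:94639519-94639768 and FOXO1 at chr13:40666642-40666891 (both minus strand). The FBP1 window lies within the gene span given above, so it precedes a start inside that span and not its outer end. Capitals mark GGGGGG or its complement CCCCCC, a run of the kind zinc fingers of the VEZF1 type are known to bind, and TATAAA, the core of the TATA box.
G6PC: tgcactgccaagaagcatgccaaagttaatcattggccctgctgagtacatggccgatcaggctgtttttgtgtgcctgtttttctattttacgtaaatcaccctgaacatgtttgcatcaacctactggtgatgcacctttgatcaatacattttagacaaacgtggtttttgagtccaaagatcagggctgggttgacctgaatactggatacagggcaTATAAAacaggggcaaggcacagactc
FBP1: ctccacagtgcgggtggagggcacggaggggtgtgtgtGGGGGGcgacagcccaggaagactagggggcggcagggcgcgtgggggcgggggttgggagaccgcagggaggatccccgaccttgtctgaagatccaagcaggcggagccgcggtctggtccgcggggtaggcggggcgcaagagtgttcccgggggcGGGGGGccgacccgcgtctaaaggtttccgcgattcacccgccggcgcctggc
FOXO1: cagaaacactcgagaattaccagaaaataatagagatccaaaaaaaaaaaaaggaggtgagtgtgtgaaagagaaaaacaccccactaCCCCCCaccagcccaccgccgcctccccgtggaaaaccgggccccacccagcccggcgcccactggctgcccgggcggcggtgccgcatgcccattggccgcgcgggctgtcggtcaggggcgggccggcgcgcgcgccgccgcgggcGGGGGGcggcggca
The G6PC window had 44% G and C and 3 CpG, with TATAAA beginning 29 bases before the start. The FBP1 window had 72.8% G and C, 26 CpG and 2 G-runs, and the FOXO1 window 67.2%, 27 CpG and 2 G-runs, against medians of 58% and 11 CpG over 35116 promoters. A G-run (either strand, overlapping matches counted) was in 3 of the 14 windows, those of PCK2, FBP1 and FOXO1, and in 17.6% of all promoters. TATAAA was in 2 of the 14, at G6PC and at 1 start of SLC37A4, and in 10.7% of all promoters. The cAMP element TGACGTCA, the forkhead letters TGTTTAC and the insulin response letters TGTTTTG, searched on both strands, were in none of the 14 windows, and in 1.65%, 2.98% and 4.30% of all promoters. Only these exact letters were searched, so other forms of the elements were not counted. These counts describe letters in a window and are not evidence of binding.

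The libraries held between 28756765 and 57199396 counts. All but 1 of 12 hepatocyte markers exceeded a level of 1 in some library in CPM, the count of a gene divided by the scaled library total and multiplied by 1000000,, and their summed CPM ran from 16848 to 21316 in VEZF1-WT and from 16217 to 20698 in VEZF1-2A, with 0 of 12 at an unadjusted p under 0.05. Summed markers of other cell types lay between 1.71 and 3.47 CPM for fibroblasts, between 2.14 and 4.34 for endothelium and between 0.069 and 0.211 for kidney tubules. Of the 6 leukocyte markers PTPRC and CD3E, which define the lineage, stayed at or under 0.121 CPM, although LYZ (493 to 663 CPM) and CD68 brought the sum to between 656 and 775. The part of other cell types in the results below was not tested. VEZF1 itself had 39.9 to 59.2 CPM in VEZF1-WT and 38.8 to 48.5 in VEZF1-2A; since both groups carry a form of VEZF1, this does not check the labels.

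Levels of the 10 genes were compared as CPM per kb of exon (the exon positions of all isoforms together), which scales for gene length. With isoforms joined, the exons of PCK1 form 2 blocks (6828 bases in all) and those of SLC37A4 form 3 (6186 bases). Those of PCK2 form 11 (4177 bases). Where such blocks hold bases outside the main transcript, the level per kb is understated. How far this moved the order or the ratios below was not tested. PCK2 led with a mean of 13.1 CPM per kb over the 6 libraries, above 83.5% of the genes tested. PC followed at 3.62 and G6PC3 at 2.15, above 59.4% and 47.9% of them. PPARGC1A had 1.31, FOXO1 1.01 and SLC37A4 0.741 CPM per kb, in the lower part of the tested genes. PCK1, the classical liver isoform, had only 0.342, above 14.6%, and TAT 0.135, above 5.55%. FBP1 had 0.0200 and G6PC 0 CPM per kb. PCK2, PC and G6PC3, which are found in many tissues, thus stood at the top of the order. At its foot were TAT, FBP1 and G6PC, known mainly from liver or from liver and kidney. PPARGC1A, FOXO1, SLC37A4 and the liver isoform PCK1 lay between them, and a split by tissue was not tested. Neighbours in the order had separate ranges over the 6 libraries except PPARGC1A and FOXO1 (PPARGC1A higher in 5 of 6), FOXO1 and SLC37A4 (FOXO1 higher in 6 of 6 within a library, but with overlapping ranges) and FBP1 and G6PC.

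**Figure D1:**
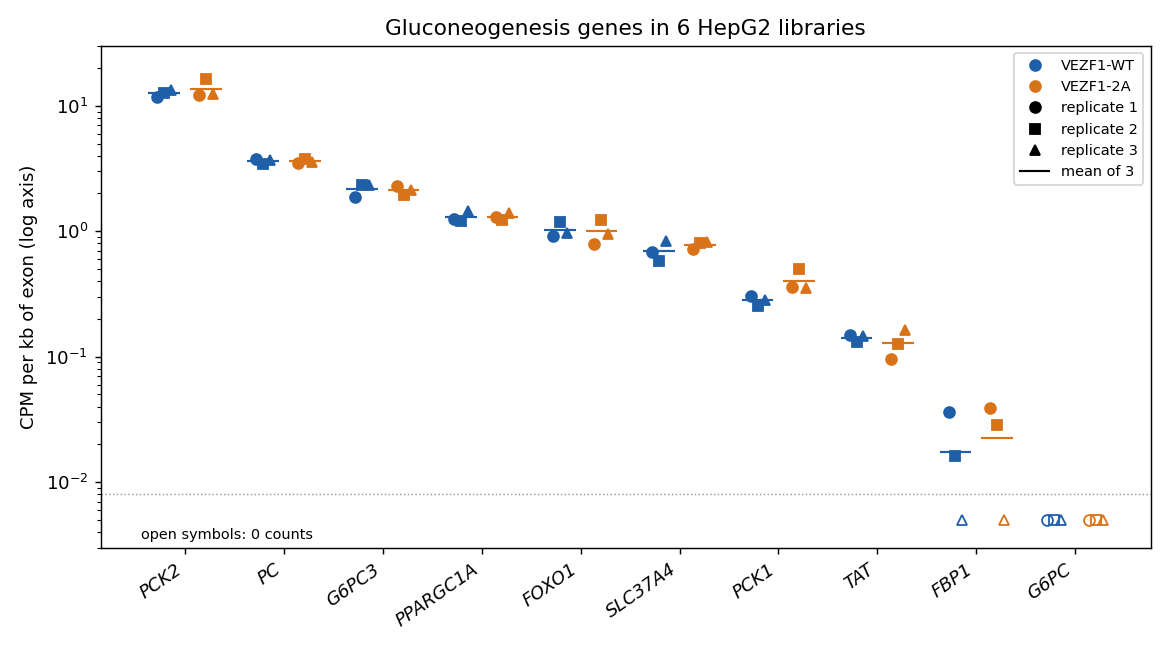
Level of each gene in each library, as CPM per kb of exon on a log axis, in order of the mean; blue is VEZF1-WT, orange VEZF1-2A, symbols are replicates, lines are means of 3, and open symbols under the dotted line stand for 0 counts. PCK2 is highest at 13.1 CPM per kb on average, and G6PC is at 0 in all 6 libraries.

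Group differences were tested with edgeR's quasi-likelihood test on the counts, as the log2 fold change of VEZF1-WT over VEZF1-2A, so a negative value means a lower level in VEZF1-WT. Of 19111 genes tested, 0 (0%) had an adjusted p under 0.05 (Benjamini-Hochberg over all of them, smallest 0.9996), with 408 at an unadjusted p under 0.05 and 3 at an adjusted p under 0.05 by DESeq2, none of them a gluconeogenesis gene. Among the 10 genes, 8 passed the filter on low counts. A single one, PCK1, had an unadjusted p under 0.05, 12.5% of the 8 against 2.13% of all genes, and it was lower in VEZF1-WT, as were 1.3% of all genes at that threshold; 0.832% were higher. The 2 groups had no overlap in CPM for the same 1 of 8, against 7.36% of all genes. The median log2 fold change of the 8 was 0.01, beside 0.00 over all genes tested, with 5 positive and 3 negative. The other 7 lay between -0.15 and 0.14, with unadjusted p from 0.313 to 0.956.

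**Figure D2:**
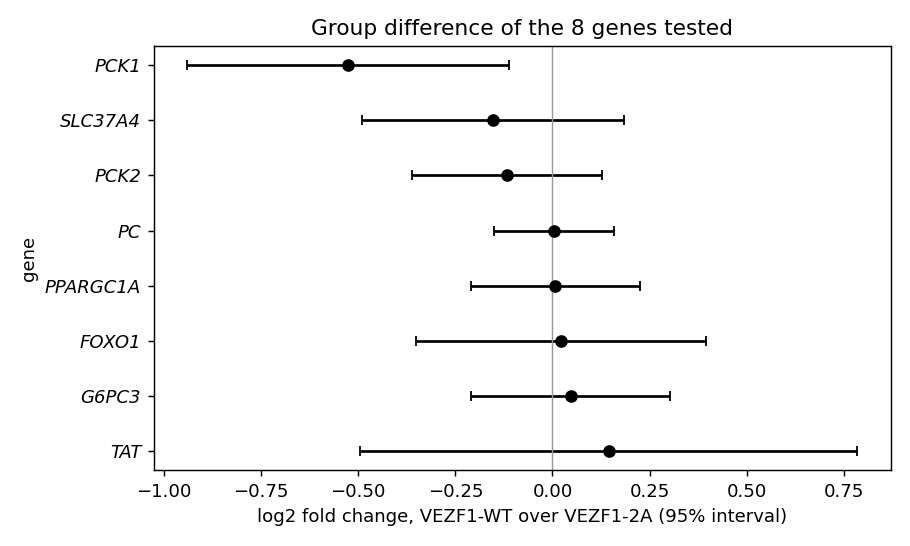
Log2 fold change of VEZF1-WT over VEZF1-2A for the 8 genes tested, from edgeR, with 95% confidence intervals as bars (3 libraries a group). The interval of PCK1, from -0.94 to -0.11, is the only one of the 8 that leaves out 0.

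PCK1, the cytosolic carboxykinase that catalyses the committed step from oxaloacetate, had 2.07, 1.74 and 1.95 CPM in VEZF1-WT replicates 1 to 3, from raw counts of 98, 62 and 110. With VEZF1-2A it had 2.47, 3.39 and 2.41 CPM, from 72, 136 and 80 counts. Every VEZF1-2A library was above every VEZF1-WT library, and replicate 2 of VEZF1-2A stood highest. The means were 1.92 ± 0.167 and 2.76 ± 0.552 CPM (SD, n = 3), a log2 fold change of -0.53 (SE 0.19), which is a 1.44-fold higher level in VEZF1-2A (95% interval 1.08 to 1.92). The edgeR p was 0.0176 unadjusted and 0.9996 adjusted over all genes, so PCK1 did not pass the adjusted threshold. By p it ranked 111 among the genes tested, and 4.21% of them had a fold change at least as large in size. An exact two-sided permutation test of log2(CPM + 0.1) gave p = 0.1, the smallest that 3 libraries against 3 allow.

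The difference in PCK1 leaned on single libraries. Without VEZF1-2A replicate 2 the log2 fold change was -0.34 with an edgeR p of 0.101, and without VEZF1-WT replicate 2 it was -0.47 with an edgeR p of 0.053. Leaving out any other library kept the unadjusted edgeR p between 0.0117 and 0.0359, and the fold change stayed negative each time. A score of 20 cell cycle genes (mean log2 CPM, centred) was 0.144, -0.167 and 0.0931 with VEZF1-WT and -0.104, -0.136 and 0.169 with VEZF1-2A, so high and low libraries occurred in both groups. With that score as a covariate the log2 fold change of PCK1 was -0.51 with an unadjusted edgeR p of 0.025 (adjusted p = 0.9995). In bulk RNA, fewer cells that make a transcript and less of it per cell cannot be told apart.

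PCK2, the mitochondrial form of the same enzyme, had 49.2, 52.4 and 56.2 CPM with VEZF1-WT and 50.7, 68.8 and 51.5 with VEZF1-2A. The groups overlapped, and again VEZF1-2A replicate 2 was highest. The means were 52.6 ± 3.49 and 57.0 ± 10.2 CPM (SD, n = 3), a log2 fold change of -0.12 (SE 0.11, 95% interval -0.36 to 0.13, unadjusted edgeR p = 0.313, exact permutation p = 0.7). Within each library PCK2 exceeded PCK1 by a wide margin per kb of exon. The ratio of PCK2 to PCK1 was 38.9, 49.3 and 47.1 with VEZF1-WT and 33.6, 33.1 and 34.9 with VEZF1-2A, so the groups did not overlap. Geometric means were 44.9 and 33.9, a log2 difference of 0.41, with an SD of 0.181 among VEZF1-WT and 0.0398 among VEZF1-2A libraries on the log2 scale. The exact two-sided permutation test gave p = 0.1, the smallest possible (0.7 adjusted over the 7 ratios computed). VEZF1-2A replicate 2, highest for both genes, did not stand apart in this ratio. The ratio contains the PCK1 values and is not independent of their difference. As a share of both carboxykinases per kb, PCK1 was 2.51%, 1.99% and 2.08% with VEZF1-WT and 2.89%, 2.93% and 2.78% with VEZF1-2A. On this scale nearly the whole carboxykinase RNA was the mitochondrial form in all 6 libraries. Both the ratio and the share depend on the exon lengths used.

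**Figure D3:**
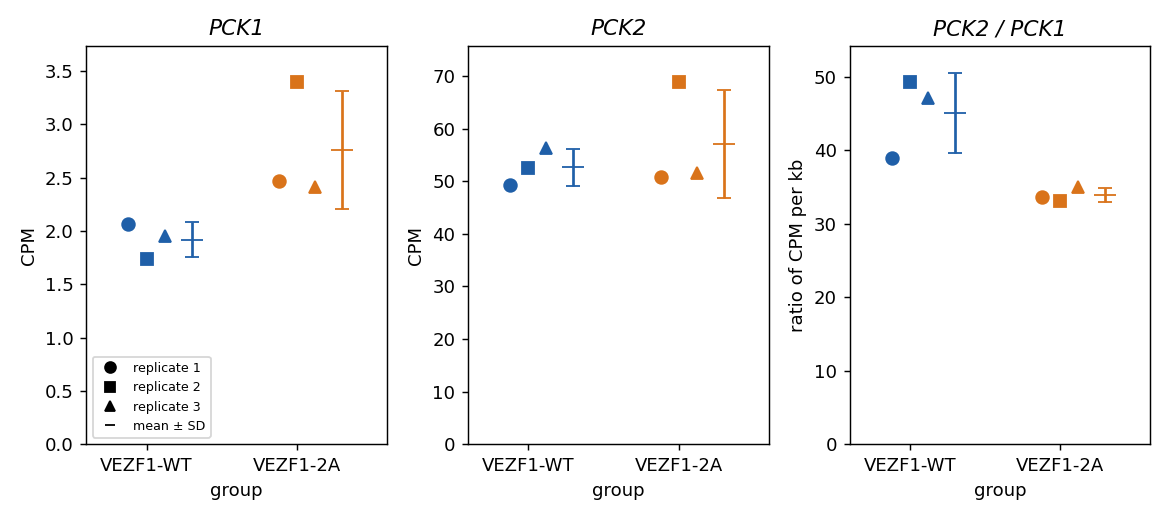
PCK1 and PCK2 in CPM and the ratio of PCK2 to PCK1 per kb of exon in each library, with axes from 0; symbols are replicates and bars mean ± SD of 3 libraries. PCK1 is separated between the groups, PCK2 overlaps, and the ratio lies between 33.1 and 34.9 in VEZF1-2A and between 38.9 and 49.3 in VEZF1-WT.

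PC, which supplies oxaloacetate, was the steadiest of the 8. It had 27.6, 25.1 and 26.8 CPM with VEZF1-WT and 25.6, 27.8 and 25.9 with VEZF1-2A, and the highest library was 1.11 times the lowest. The means were 26.5 ± 1.26 and 26.4 ± 1.16 CPM (SD, n = 3), with a log2 fold change of 0.00 (SE 0.07, unadjusted edgeR p = 0.956, exact permutation p = 1) and a 95% interval from -0.15 to 0.16. In PC 8.5% of the exon positions are shared with LRFN4 on the opposite strand. Relative to PC, the level of PCK2 per kb was 3.12 to 4.33 times as high over the 6 libraries, with overlapping groups (exact permutation p = 0.6).

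FBP1 had raw counts of 3, 1 and 0 with VEZF1-WT and 2, 2 and 0 with VEZF1-2A, 8 in all. Summed over the 6 libraries this is 0.0331 CPM, with an exact 95% Poisson interval from 0.0143 to 0.0652 that covers counting error only. Even numbers made up 81.0% to 83.0% of the values from 1 to 10 in these libraries, so reads may not have been counted independently and the interval may be too narrow. No group difference was detectable at this depth. PCAT7, a gene on the opposite strand that covers 16.2% of the FBP1 exon positions, had 851 counts; the strand setting of the counting was not given, so reads of the pair cannot be assigned with certainty.

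G6PC, which makes free glucose in liver, had 0 counts in all 6 libraries. A count of 0 was taken to allow up to 3 counts, which over the 6 libraries is 0.0124 CPM or 0.00284 CPM per kb, and the upper end of the two-sided 95% Poisson interval used for FBP1 would be 0.0153 CPM. Its widely expressed relative G6PC3 had 8.57, 10.7 and 10.6 CPM with VEZF1-WT and 10.4, 8.79 and 9.76 with VEZF1-2A. The G6PC3 groups overlapped, with means of 9.94 ± 1.19 and 9.63 ± 0.791 CPM (SD, n = 3) and a log2 fold change of 0.05 (SE 0.12, 95% interval -0.21 to 0.30, unadjusted edgeR p = 0.695, exact permutation p = 0.7). SLC37A4, the carrier that feeds either phosphatase, had 4.22, 3.59 and 5.18 CPM with VEZF1-WT and 4.46, 4.99 and 5.06 with VEZF1-2A. VEZF1-WT replicate 2 was lowest and the groups overlapped, for a log2 fold change of -0.15 (SE 0.15, 95% interval -0.49 to 0.18, unadjusted edgeR p = 0.338, exact permutation p = 0.4). Of its exon positions 8.79% are shared with TRAPPC4 on the opposite strand, a gene with 2070 counts against 1118 for SLC37A4. RNA of the carrier and of G6PC3 was therefore present in every library, while that of the liver phosphatase G6PC was listed at 0.

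TAT, which breaks down tyrosine and is a classical glucocorticoid-induced liver gene, was near the limit of detection. Its CPM were 0.802, 0.701 and 0.780 with VEZF1-WT and 0.514, 0.674 and 0.874 with VEZF1-2A, from 15 to 44 raw counts a library. The VEZF1-2A libraries spanned the whole VEZF1-WT range, and replicate 1 of VEZF1-2A was lowest. The log2 fold change was 0.14 (SE 0.29, unadjusted edgeR p = 0.626, exact permutation p = 0.6) with the widest 95% interval of the 8 genes, from -0.49 to 0.78. TAT shares 8.01% of its exon positions with TAT-AS1 on the opposite strand.

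The regulators were detected in every library. PPARGC1A had 13.6, 13.2 and 15.9 CPM with VEZF1-WT and 14.1, 13.3 and 15.2 with VEZF1-2A, with replicate 3 highest in both groups. Its means were 14.2 ± 1.43 and 14.2 ± 0.919 CPM (SD, n = 3), a log2 fold change of 0.01 (SE 0.10, 95% interval -0.21 to 0.22, unadjusted edgeR p = 0.939, exact permutation p = 1). FOXO1 had 5.49, 7.07 and 5.73 CPM with VEZF1-WT and 4.73, 7.39 and 5.70 with VEZF1-2A, with replicate 2 highest in both. Its log2 fold change was 0.02 (SE 0.17, 95% interval -0.35 to 0.40, unadjusted edgeR p = 0.898, exact permutation p = 0.9). Of the FOXO1 exon positions 22.7% are shared with AL133318.1 on the same strand. The unadjusted PCK1 difference was thus accompanied by group means of PPARGC1A and FOXO1 within their own spread, though intervals of this width do not show equal levels.

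Across the 8 tested genes no library was high or low throughout. VEZF1-2A replicate 2 held the highest value for 4 of 8 genes, among them both carboxykinases, and VEZF1-WT replicate 2 the lowest for 4 of 8. PCK1 varied most, with an SD of 0.325 of log2(CPM + 0.1) over the 6 libraries. Of 15214 genes with a mean of at least 1 CPM, the 3 whose centred log2 profile lay nearest to that of PCK1 were IGFBP2, the ferritin pseudogene FTH1P2 and the lipid transporter ABCA7, with root mean square differences of 0.0707, 0.0862 and 0.0953. IGFBP2, which binds insulin-like growth factors, had 1.39, 1.07 and 1.44 CPM with VEZF1-WT and 1.65, 2.35 and 1.63 with VEZF1-2A. FTH1P2 can share reads with its parent gene, so its counts are uncertain. Likeness here describes 6 libraries and carries no test.

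Other genes of glucose production were taken from 8 lists with 105 genes, 94 of them tested. These lists too were chosen with earlier results of these data known. An unadjusted p under 0.05 was reached by 3 of 94 (3.19%, against 2.13% of all genes), all 3 lower in VEZF1-WT, and by none after adjustment (0% of all genes). The count of 3 was not stable, since it became 11 without VEZF1-2A replicate 1, 7 without VEZF1-2A replicate 3 and 6 without VEZF1-WT replicate 3, while that over all genes became 472, 973 and 440. The median log2 fold change of the 94 was -0.03, with 38 positive and 56 negative values, and 5 of 94 (HK2, IGFBP1, PGAM1, PRKACB and CREB1, of which the last were named after their values were seen) had no overlap between groups, beside 7.36% of all genes. By list, the counts at an unadjusted p under 0.05 were 0 of 9 enzymes shared with glycolysis, 1 of 11 enzymes that oppose gluconeogenesis, 0 of 8 paralogs, 0 of 10 enzymes of substrate entry, 0 of 7 mitochondrial carriers, 0 of 15 hormone signalling genes, 0 of 23 transcription factors and coregulators and 2 of 11 other genes responsive to FOXO1 or cAMP.

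HK2, a hexokinase that phosphorylates glucose and so opposes the last step, had 55.9, 52.9 and 59.2 CPM with VEZF1-WT and 61.2, 71.5 and 72.9 with VEZF1-2A. The groups did not overlap, and the log2 fold change was -0.29 (SE 0.08, edgeR p = 0.00362 unadjusted and 0.9996 adjusted, exact permutation p = 0.1). With each library left out in turn the unadjusted edgeR p of HK2 ran from 0.00056 to 0.0193. The median log2 fold change of the 11 opposing enzymes was -0.15, with 8 negative and 3 positive values. This lean was not particular to them. The enzymes shared with glycolysis had 8 negative and 1 positive, and the other genes responsive to FOXO1 or cAMP 9 and 2. The mitochondrial carriers went the other way, with 1 negative and 6 positive.

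IGFBP1, a secreted liver protein whose gene, like PCK1, is induced by FOXO1 and cAMP and lowered by insulin, had 33.8, 38.1 and 19.1 CPM with VEZF1-WT and 41.7, 86.7 and 43.1 with VEZF1-2A. All VEZF1-2A libraries were above all VEZF1-WT libraries, and VEZF1-2A replicate 2 had 2.01 times the next highest. The log2 fold change was -0.93 (SE 0.30, edgeR p = 0.0101 unadjusted and 0.9996 adjusted, exact permutation p = 0.1), and without VEZF1-2A replicate 2 it was -0.49 with an unadjusted edgeR p of 0.0678. With no filter on low counts, a fit over 38745 genes gave IGFBP1 an adjusted edgeR p of 9.43e-25 at a log2 fold change of -0.92. The IGFBP1 counts are the same in both fits, and their spread between libraries cannot give so small a p. That p was therefore not read as a call, and why the fits differ was not tested. CITED2, a coregulator that responds to cAMP, had 9.46, 9.93 and 10.1 CPM with VEZF1-WT and 10.1, 14.5 and 12.5 with VEZF1-2A. Its log2 fold change was -0.34 (SE 0.13, edgeR p = 0.0233 unadjusted and 0.9996 adjusted, exact permutation p = 0.2). Without VEZF1-2A replicate 2 the fold change of CITED2 was -0.20 on the log2 scale (unadjusted edgeR p of 0.133), and without VEZF1-WT replicate 1 it was -0.31, near the full value, at a p of 0.0724. PCK1, IGFBP1 and CITED2 thus all had their highest value in VEZF1-2A replicate 2, and each was past an unadjusted p of 0.05 only with that library.

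In the other lists the gene with the smallest p is given. Among the enzymes shared with glycolysis it was PGK1, at a log2 fold change of -0.15 (unadjusted edgeR p = 0.0732, exact permutation p = 0.4). Among the paralogs it was PPRC1, a relative of PPARGC1A, at 0.13 (unadjusted edgeR p = 0.0908, exact permutation p = 0.3), and among the carriers MPC1, a subunit of the mitochondrial pyruvate carrier, at 0.13 (unadjusted edgeR p = 0.0951, exact permutation p = 0.2). LDHA, which interconverts lactate and pyruvate, had -0.10 (unadjusted edgeR p = 0.129, exact permutation p = 0.3). STK11, a kinase upstream of AMPK, also had -0.10, with an exact permutation p of 0.3. KLF15, a transcription factor that promotes amino acid use for glucose, had 2.11, 1.63 and 1.84 CPM with VEZF1-WT and 2.61, 2.00 and 3.07 with VEZF1-2A. The KLF15 groups overlapped, and its log2 fold change was -0.45 (SE 0.20, unadjusted edgeR p = 0.0506, exact permutation p = 0.2). Among the 11 not tested were the fasting-responsive PDK4, the glucagon receptor gene GCGR and the insulin receptor substrate IRS2.

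**Figure D4:**
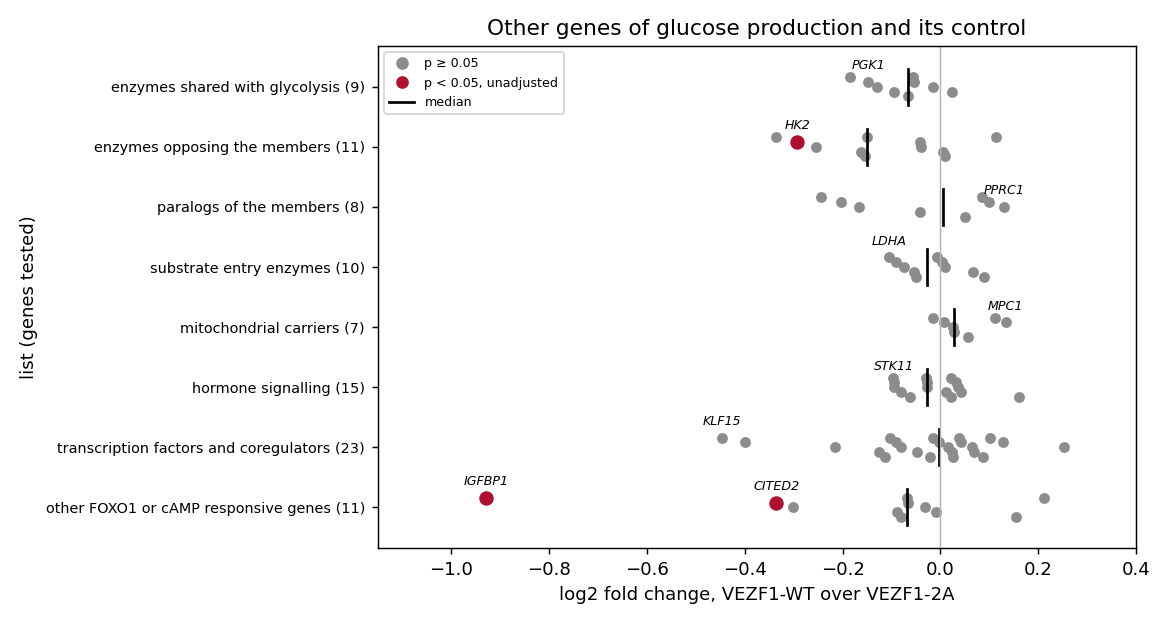
Log2 fold change of VEZF1-WT over VEZF1-2A for the 94 other genes tested, 1 point a gene, by list, with the number tested in brackets and the list median as a bar; red marks an unadjusted edgeR p under 0.05. The 3 red points (HK2, IGFBP1 and CITED2) are all below 0, and the list medians lie between -0.15 and 0.03.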

How the data were processed

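RNA of 6 HepG2 libraries was sequenced, 3 of VEZF1-WT and 3 of VEZF1-2A, with groups and replicate numbers taken from the labels. The authors deposited 1 table of raw read counts per gene on GRCh38, without normalization; aligner, counting program, annotation release and strand setting are not given in the sources used here. The 5 lines of the broken entry of ANK2 were left out. Even numbers made up 65.7% to 67.5% of the values from 11 to 100, so counts may not be independent. The fit reported and the permutation tests used the spread between libraries. Totals of 28756765 to 57199396 set the precision.

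Tests used edgeR 4.0.16 under R 4.3.3 (filterByExpr by group with minimum count 10 and minimum total 15, TMM factors from 0.977 to 1.01, glmQLFit and glmQLFTest, two-sided, group as the single covariate, prior count 0.125, Benjamini-Hochberg adjustment over 19111 genes). The code was tested on simulated data. CPM used TMM-scaled library sizes and was divided by exon length for levels between genes. Single values were compared by exact permutation tests of log2(CPM + 0.1). Alternatives were DESeq2 1.42.0, its size factors, limma voom (limma 3.58.1), other filters, a replicate block, halved counts, a cell cycle covariate, members without shared exons and each library left out. Members and lists were chosen with earlier results of these data known. Named genes were the 10 members, the gene of smallest p in each related list, every related gene at an unadjusted p under 0.05, and the 3 profiles nearest to the most variable member. Other genes are named as markers, as partners that share exons with a member or as genes not tested, and were chosen after their values were seen. Figures were drawn with matplotlib 3.10.9. Values of some genes of the lists are not reported here.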

Additional observations from a re-analysis of the deposited data

How the results depend on the processing

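Over all genes the count at an adjusted p under 0.05 was 0 in the fit reported and 3 with DESeq2. The 3 were OR2I1P, UBD and GABBR1, named after their values were seen. Whether they share exon positions, and so reads, was not examined here, so they may not be separate results. The count was 16 with no filter (38745 genes tested) and 6 with the replicate number as a block. At an unadjusted p under 0.05 it was 408 in the fit reported, 219 with DESeq2, 896 with no filter and 825 with the block. With a library left out the unadjusted count ran from 292 to 973, the last without VEZF1-2A replicate 3. The count among the 8 gluconeogenesis genes was 1 in every such fit except 0 without VEZF1-WT replicate 2 or VEZF1-2A replicate 2. Among the related genes it was 3, and 11 with no filter, 11 with the block, 7 with the cell cycle covariate and 3 to 11 with a library left out, 11 without VEZF1-2A replicate 1. For all of these the cause was not tested.

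PCK1 stayed lower in VEZF1-WT in every setting, from -0.62 to -0.34 with a library left out, and past an unadjusted p of 0.05 in all but the 2 settings named in the report. Signs turned for PCK2, G6PC3, PC, PPARGC1A, TAT and FOXO1, all with intervals that include 0. With the cell cycle covariate PC was at -0.0024 and PPARGC1A at -0.015. With a library left out the log2 fold changes ran from -0.19 to 0.042 for PCK2, -0.017 to 0.14 for G6PC3, -0.029 to 0.042 for PC, -0.080 to 0.058 for PPARGC1A, -0.012 to 0.34 for TAT and -0.11 to 0.22 for FOXO1. The median of the members stayed between -0.064 and 0.020. TAT could not be fitted with a filter of 1 CPM in 3 libraries, and FBP1 could be fitted only with no filter.

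Deviations from the group means correlated at 0.082, 0.151 and 0.382 between libraries with the same replicate number, so the numbers were not taken to pair the libraries. With the replicate block PCK1 had -0.51 with an unadjusted edgeR p of 0.015, IGFBP1 had -0.89 (edgeR, adjusted p = 0.00162), and no gluconeogenesis gene changed its call. VEZF1-WT replicate 2 correlated best with VEZF1-2A replicate 1 (0.181), while VEZF1-WT replicates 1 and 3 correlated best with the VEZF1-2A library of the same number. Low counts limit FBP1, G6PC and TAT.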
